A study of Mus musculus with 4 samples.

Results

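The actin isoform switch was described in single mouse muscle cells through the 5 actin genes Acta1, Actc1, Acta2, Actb and Actg1, taken by gene symbol from the 32285 genes counted. Muscle stem cells of the genotype MyoD-KI, with a tdTomato reporter of the muscle transcription factor MyoD, were taken from skeletal muscle and grown for 5 days. Cells in the MyoD-tdTomato high gate were then sorted and their transcripts counted by droplet sequencing of 3-prime ends. The 4 deposited replicates form 1 group, and the numbers of animals, cultures and sorts are not given in the sources used here. Because cells were chosen by a reporter of MyoD, they are not a random draw of the culture, and the sort that removed reporter-low cells bears on every share given.

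The actin genes make nearly the same protein at different times and places. Skeletal (Acta1), cardiac (Actc1) and smooth muscle (Acta2) alpha-actin form the thin filaments on which myosin pulls, while beta-actin (Actb) and gamma-actin (Actg1) build the cytoplasmic cortex, stress fibres and protrusions of nearly every cell. During myogenesis, dividing myoblasts that rely on cytoplasmic actins withdraw from the cell cycle, turn on Myog (myogenin, the transcription factor of terminal differentiation) and later Myh3 (embryonic myosin heavy chain), and assemble sarcomeres. Skeletal muscle fibres of the embryo use cardiac and skeletal alpha-actin together, and fibres of the adult use mostly the skeletal isoform. Serum response factor (SRF), which reads the pool of free actin monomers through its cofactors Mrtfa and Mrtfb, is a known regulator of actin genes and binds the CArG box.

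The genes lie on different chromosomes, all on the minus strand in the GENCODE M21 annotation of GRCm38. Acta1 spans 123891769 to 123894751 on chromosome 8, Actc1 114047282 to 114053548 on chromosome 2, and Acta2 34241090 to 34255590 on chromosome 19. Actb spans 142903115 to 142906754 on chromosome 5, and Actg1 120345690 to 120348542 on chromosome 11. The 250 bases before the RefSeq start (GRCm38.p6) are shown for the 4 members that the promoter table holds, because Acta1 and Actc1 moved together below while Actg1 moved the other way. They are chr8:123894776-123895025 for Acta1, chr2:114052876-114053125 for Actc1, chr19:34255374-34255623 for Acta2 and chr11:120348496-120348745 for Actg1. All are written 5′ to 3′ on the minus strand, and capitals mark a CArG box (a run of A or T bases between CC and GG) or a CArG-like site with a single G or C in that run.
Acta1: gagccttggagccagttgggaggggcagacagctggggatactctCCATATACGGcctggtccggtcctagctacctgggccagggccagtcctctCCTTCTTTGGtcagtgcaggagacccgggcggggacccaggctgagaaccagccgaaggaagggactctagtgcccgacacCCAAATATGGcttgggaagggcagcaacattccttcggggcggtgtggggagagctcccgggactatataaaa
Actc1: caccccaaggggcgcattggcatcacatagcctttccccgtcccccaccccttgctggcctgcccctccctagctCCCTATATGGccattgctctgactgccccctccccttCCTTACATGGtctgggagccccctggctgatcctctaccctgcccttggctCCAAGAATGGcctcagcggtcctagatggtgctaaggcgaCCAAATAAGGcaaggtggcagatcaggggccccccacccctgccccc
Acta2: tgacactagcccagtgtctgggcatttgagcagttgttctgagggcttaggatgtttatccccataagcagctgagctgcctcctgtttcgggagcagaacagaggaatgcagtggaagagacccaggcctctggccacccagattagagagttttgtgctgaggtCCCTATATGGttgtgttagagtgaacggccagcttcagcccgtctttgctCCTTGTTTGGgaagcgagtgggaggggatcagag
Actg1: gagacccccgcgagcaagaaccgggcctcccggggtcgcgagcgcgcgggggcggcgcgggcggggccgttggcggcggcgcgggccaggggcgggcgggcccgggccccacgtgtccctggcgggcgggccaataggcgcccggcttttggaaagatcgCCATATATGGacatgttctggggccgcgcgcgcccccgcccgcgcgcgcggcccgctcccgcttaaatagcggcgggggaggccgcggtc

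Acta1 held 1 CArG box, starting 73 bases before the start, and 2 CArG-like sites. Actc1 held 1 CArG box at 47 bases and 3 CArG-like sites. Acta2 held 2 CArG-like sites, at 84 and 34 bases, and 0 CArG boxes. Actg1, a cytoplasmic actin, held 1 CArG box at 90 bases, so the motif is not limited to the muscle isoforms. Of 32851 promoters of the same length in the RefSeq table, 1.47% held a CArG box and 7.24% a CArG-like site on either strand, and 0.67% held 2 or more sites of either kind. The E-box CANNTG, the general motif of the MyoD family, occurred 2 times in Acta1, 0 times in Actc1, 3 times in Acta2 and 1 time in Actg1, and in 66.2% of all promoters. None of its copies overlaps a capitalised site. Distances count from the RefSeq start, which differs from the GENCODE start, the upper end of each span above. The Actc1 window lies inside its GENCODE span, as do most of the Acta2 window and part of the Actg1 window. The Acta1 window begins beyond its span. The sites and distances thus depend on the start used. These matches describe letters in the windows and were not tested as binding sites.

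Before any level is read, the replicates need a remark. The 4 files shared 5946 to 5965 barcodes per pair, 99.9% of the smaller file, and 98.3% to 98.8% of barcodes correlated better with themselves in another file than with any of 100 others. They were therefore counted as 1 sample, measured in 4 files from the same cells, and whether these are separate libraries or runs of 1 library is not given in the sources used here. Each value is a mean over the files, and the spread between files and the exact 95% intervals cover counting error only, so no p-value is given and all differences are between cells of this sample. The files held 62627341 to 68898900 UMIs (unique molecular identifiers, each a captured transcript). Of 5985 barcodes in any file, 5481 were kept, being present in all files with a mean of at least 1000 genes and under 10% mitochondrial UMIs. Kept cells had a median of 11049 UMIs per file, and 2434 of them (44.4%) scored in S or G2/M phase and are called cycling. Myod1, Des and Myog stood at 507, 1165 and 1803 CPM (UMIs per 1000000), so genes that define the muscle lineage were present, whereas the fibroblast marker Dcn, the endothelial marker Cdh5 and the immune marker Ptprc were each under 0.4 CPM. Col3a1, also on the fibroblast list, stood at 110 CPM. Among smooth muscle and pericyte markers, Myh11 (smooth muscle myosin) stood at 0.302 and Cnn1 (calponin) at 0.100 CPM, and Tagln (transgelin) at 25.7 CPM. Myl9, a regulatory light chain of non-muscle and smooth muscle myosin, was the most abundant of that list at 156 CPM, with Cspg4 at 12.3 and Abcc9 at 11.7 CPM.

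Over all kept cells the actin genes took 0.954% of UMIs. Levels are per molecule, since 3-prime UMIs are not scaled by gene length. The coding parts of the members are nearly identical, and how many reads were lost or split for that reason was not measured here. Actb was the most abundant member, at 3188, 3199, 3176 and 3207 CPM in replicates 1 to 4. Acta1 followed at 2129, 2126, 2133 and 2146 CPM. Actg1 (1529, 1531, 1540 and 1525 CPM) and Acta2 (1424, 1420, 1423 and 1434 CPM) came next, and Actc1 was lowest at 1261, 1257, 1256 and 1261 CPM. No 2 members overlapped between files, and the order was the same in each. As shares of actin UMIs these levels correspond to 33.5% for Actb, 22.4% for Acta1, 16.0% for Actg1, 14.9% for Acta2 and 13.2% for Actc1. The remaining actin gene, Actg2 (enteric smooth muscle actin), stood at 1.31 CPM and was not followed further.

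To follow the switch along differentiation, cells were placed in 6 bins by their Myog level, a gene outside the actin set. The lowest bin holds 361 cells with 0 Myog UMIs and the highest holds 334 cells at 6000 CPM or more. In cells without Myog, Actb and Actg1 made 90.5% of actin UMIs, Acta2 made 8.0%, and the sarcomeric pair Acta1 and Actc1 made 1.48% (1.33% to 1.66%). At 6000 CPM and over the sarcomeric pair made 64.7%, Acta2 23.1% and the cytoplasmic pair 12.2%. The gain of the sarcomeric pair was 63.2 percentage points (62.8 to 63.7), and each file gave between 63.0 and 63.6. Total actin rose along with the exchange, from 0.676% to 1.67% of UMIs, so the exchange did not take place at a constant total.

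**Figure D1:**
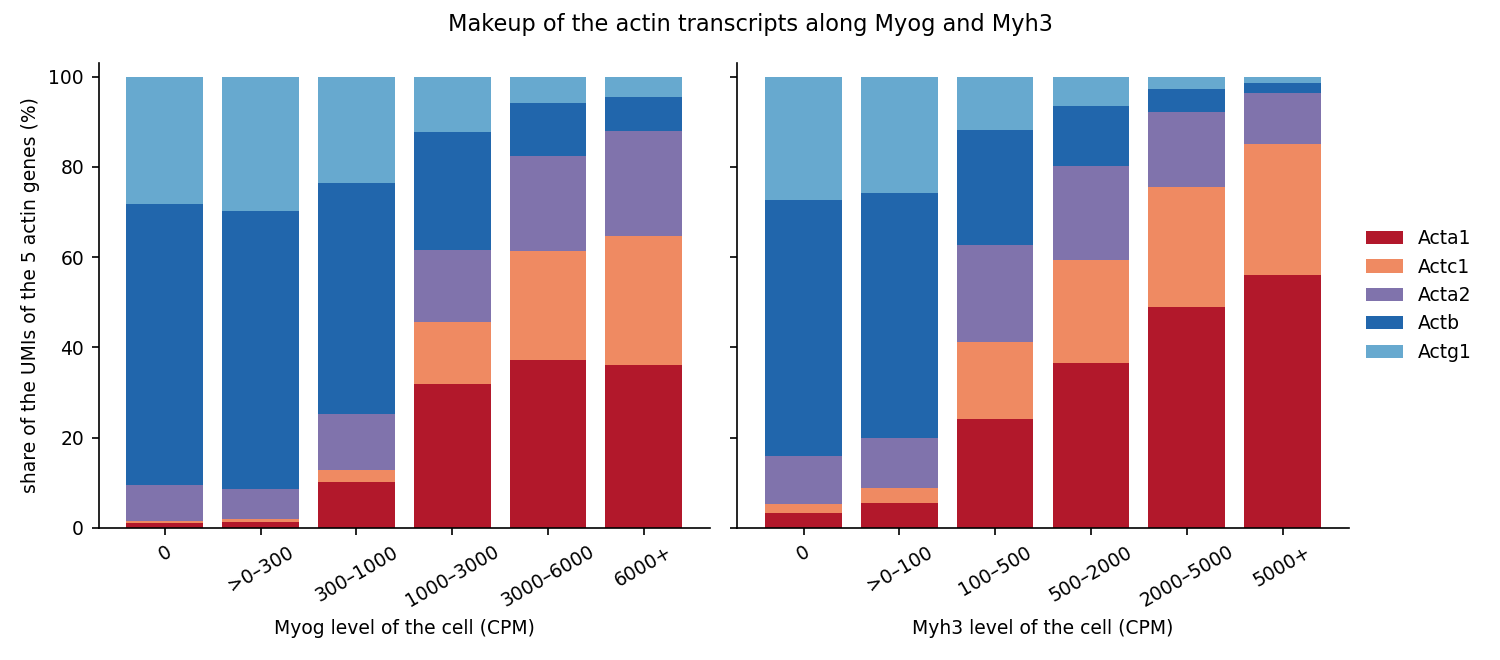
Shares of the UMIs of the 5 actin genes (vertical axis, percent, mean of 4 files) in bins of the cell's Myog level (left) and Myh3 level (right), each bar adding to 100%. The 2 blue cytoplasmic isoforms make 90.5% of actin in cells without Myog and 12.2% in the highest Myog bin, and on the Myh3 axis they go from 84.2% to 3.54%.

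In UMIs summed over the cells of a bin, most of the exchange fell between 300 and 3000 CPM of Myog. Cells with some Myog but under 300 CPM had almost the makeup of cells without it, with 1.90% for the sarcomeric pair. Between 300 and 1000 CPM the sarcomeric share was 12.9%, and between 1000 and 3000 CPM it was 45.5%, where the cytoplasmic share had come down to 38.5%. Between 3000 and 6000 CPM it was 61.4%, close to the 64.7% of the highest bin. These sums pool unlike cells. At 300 to 1000 CPM of Myog, Acta1 and Actc1 made 3.53% and 0.60% of actin in the 188 cells without Myh3. At 1000 to 3000 CPM they made 7.52% and 2.13% in 183 cells without Myh3. In the 55 cells of that Myog bin with Myh3 at 5000 CPM or more they made 62.6% and 25.7%.

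The 2 sarcomeric isoforms did not follow the same course. Acta1, the adult skeletal isoform, stood at 69.8, 96.2, 762, 3166, 4918 and 5993 CPM from the lowest to the highest Myog bin. Actc1, the isoform of heart and embryonic muscle, stood at 30.5, 39.3, 199, 1370, 3224 and 4788 CPM in the same bins. At 300 to 1000 CPM of Myog, Acta1 was thus at 762 CPM and Actc1 at 199 CPM. Few of the 460 cells carried these levels, since the median over cells was 99.6 CPM for Acta1 and 31.6 CPM for Actc1, the 75th percentiles were 271 and 61.6 CPM, and the 95th percentiles were 2460 and 356 CPM. The share of Acta1 within the pair was 79.3% (78.2% to 80.4%) in this bin, 69.8% and 60.4% in the next bins and 55.6% (55.1% to 56.1%) in the highest. It was 69.6% in cells without Myog, where both genes were low and the part of free RNA in their UMIs was not tested. As a share of all actin, Acta1 was about level over the last 2 bins, at 37.1% and 36.0%, while Actc1 went from 24.3% to 28.8%.

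Acta2, the smooth muscle isoform, stood higher than either of them in cells without Myog. All cells were taken after 5 days, so an order in time was not tested. In cells without Myog, Acta2 stood at 541 CPM, 37.9% of its level over all cells, where Acta1 was at 3.27% and Actc1 at 2.42% of theirs. It then stood at 484, 923, 1592, 2793 and 3849 CPM along the bins. Its share rose from 8.0% to 23.1%, a difference of 15.1 points (14.6 to 15.6). Actb and Actg1 moved against the muscle isoforms. Actb stood at 4211, 4396, 3807, 2606, 1561 and 1285 CPM and Actg1 at 1908, 2122, 1757, 1233, 763 and 741 CPM, so both were slightly higher at under 300 CPM of Myog than without it and lower in each bin after that.

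Between the highest and lowest Myog bin, genes were called changed when their log2 ratio of CPM plus 1 was at least 1 in size and had 1 sign in all files, with at least 50 UMIs per file. Acta1, Actc1 and Acta2 passed as higher, against 8.58% of the 8206 genes measured. Their log2 ratios were 6.40 (6.21 to 6.60), 7.25 (6.96 to 7.54) and 2.83 (2.76 to 2.90). The first 2 rest on the low levels in cells without Myog, of which an unknown part can be free RNA, so their exact size is uncertain beyond the intervals. Actb and Actg1 passed as lower, at -1.71 (-1.76 to -1.66) and -1.36 (-1.43 to -1.29), as did 26.3% of all genes, with a median of -0.38 over all of them. The 3 muscle isoforms were thus among the few genes that passed upward, whereas a lower ratio, as Actb and Actg1 had, was common among all genes. With TMM or RLE scaling the share of higher among called genes went from 24.6% to 46.2% or 47.0%, and Actg1 no longer passed, at -0.88 or -0.86.

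Along Myh3, which marks cells further into differentiation, the exchange went further. The 1879 cells with 0 Myh3 UMIs had 5.24% sarcomeric actin and the 126 cells at 5000 CPM or more had 85.0% (84.6% to 85.4%), a difference of 79.7 points (79.3 to 80.1). In the highest bin Acta1 stood at 10365 CPM, Actc1 at 5327, Acta2 at 2122, Actb at 401 and Actg1 at 253 CPM. In that bin Acta1 was the most abundant actin in 78.6% of cells, Actc1 in 19.0% and Actb in 0.794%, that is 1 cell. In the lowest Myh3 bin Actb led in 89.1% of cells. The leading isoform thus differed between single cells of the end bins, and not only between the sums. No cell was followed over time.

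Cells in the middle Myh3 bin were mixed. Between 100 and 500 CPM of Myh3, Actb led in 43.8% of cells, Acta1 in 23.7%, Actc1 in 16.9% and Acta2 in 15.3%. Acta2 had its largest share there, at 21.6%, and was at 10.6% in the lowest and 11.5% in the highest bin. Its level peaked later, at 2810 CPM in cells of 2000 to 5000 CPM of Myh3, against 765 CPM in the lowest and 2122 CPM in the highest bin. The share of Acta2 therefore rose and came back along Myh3, and the difference between the end bins of 0.884 points (0.510 to 1.27) is small. That difference was 1.82 points under a stricter cell filter and 0.360 as a mean over cells, and with all cells thinned to equal depth it turned to -0.477, so no direction is read from it.

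Between the end bins of Myh3, Acta1, Actc1 and Acta2 passed as higher at log2 ratios of 5.41 (5.37 to 5.46), 5.29 (5.23 to 5.35) and 1.47 (1.42 to 1.52), as did 8.25% of 11121 genes. Actb and Actg1 passed as lower at -3.35 (-3.46 to -3.24) and -2.96 (-3.09 to -2.83), as did 29.8% of genes, whose median was -0.50. The 3 muscle and 2 cytoplasmic isoforms kept these calls under TMM and RLE scaling, which moved the share of higher among all called genes from 21.7% to 32.0% and 35.4%. In linear terms Actb was 10.2 times and Actg1 7.80 times lower in the highest bin than in cells without Myh3.

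The balance of Acta1 and Actc1 depended on both genes at once. Along Myh3 the share of Acta1 within the pair was 64.2% in the lowest bin, 58.6% at 100 to 500 CPM and 66.1% in the highest. When cells were divided by Myog and Myh3 together, Acta1 made 85.5% of the pair (255 CPM against 43.3 CPM of Actc1) in 188 cells with 300 to 1000 CPM of Myog and 0 Myh3. It made 50.2% in 98 cells with Myog at 6000 CPM or more and Myh3 at 100 to 500 CPM. At 1000 to 3000 CPM of Myog the 6 Myh3 bins lay between 66.7% and 77.9%, and at 3000 to 6000 CPM between 57.2% and 62.5%, so these Myog ranges did not overlap at any Myh3 level. The highest Acta1 level of the grid, 11536 CPM, was in 55 cells with 1000 to 3000 CPM of Myog and Myh3 at 5000 CPM or more.

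**Figure D2:**
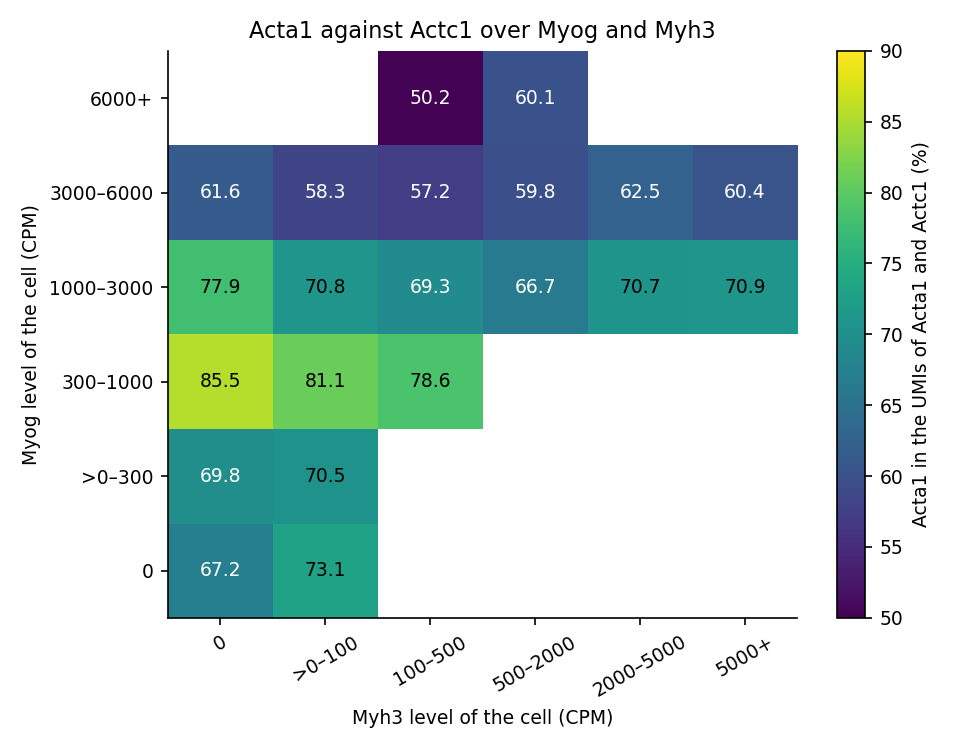
Percent of Acta1 in the summed UMIs of Acta1 and Actc1 (colour and number) in cells divided by Myog level (vertical axis, CPM) and Myh3 level (horizontal axis, CPM), for groups of at least 50 cells, with blank squares below that number. Values run from 85.5% at 300 to 1000 CPM of Myog without Myh3 to 50.2% at 6000 CPM of Myog and over.

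The cytoplasmic pair changed its internal balance less. Actb made 68.8% of Actb and Actg1 in the lowest Myog bin and 63.4% (62.2% to 64.6%) in the highest. Along Myh3 it went from 67.5% to 61.3% (58.5% to 64.1%). Over 30 groups of at least 50 cells, made from Myog, Myh3 and cycling state, the log levels of Actb and Actg1 had a Pearson r of 0.995. These groups share files and depth, and the correlation is a description.

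Detection in single cells was compared after thinning each cell to 5000 UMIs, which left 5197 cells. Over all of them, 59.5% (58.1% to 60.8%) had an Acta1 UMI and 45.0% (43.7% to 46.4%) an Actc1 UMI, against 74.6% and 57.6% without thinning. Acta2 was found in 82.4%, Actb in 97.1% and Actg1 in 94.2%. In cells without Myog, 26.9% had Acta1 and 13.6% had Actc1. For those cells, a UMI in one file was followed by a UMI in another file in 31.1% of cases for Acta1 and 12.7% for Actc1, close to the share of all these cells in which the gene was detected. Uniform low expression and free RNA cannot be told apart by this measure, so no expression is read from either share. For Acta2 in the same cells, detection was 67.7% and the share seen again 82.6%, so its UMIs came more often from the same cells. The sources used here do not say whether the files hold separate molecules, and molecules shared between files would raise the share seen again.

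Cells with Acta1 alone outnumbered those with Actc1 alone in each Myog bin. At 300 to 1000 CPM of Myog, 35.2% (30.7% to 39.95%) had Acta1 without Actc1, 8.85% (6.35% to 11.9%) had Actc1 without Acta1, and 13.0% had both. At 1000 to 3000 CPM, 50.8% had both, and in the highest bin 95.2%. All 123 thinned cells at 5000 CPM of Myh3 and over had both transcripts in each file, while only 69.5% of them still had an Actb UMI and 53.5% an Actg1 UMI.

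**Figure D3:**
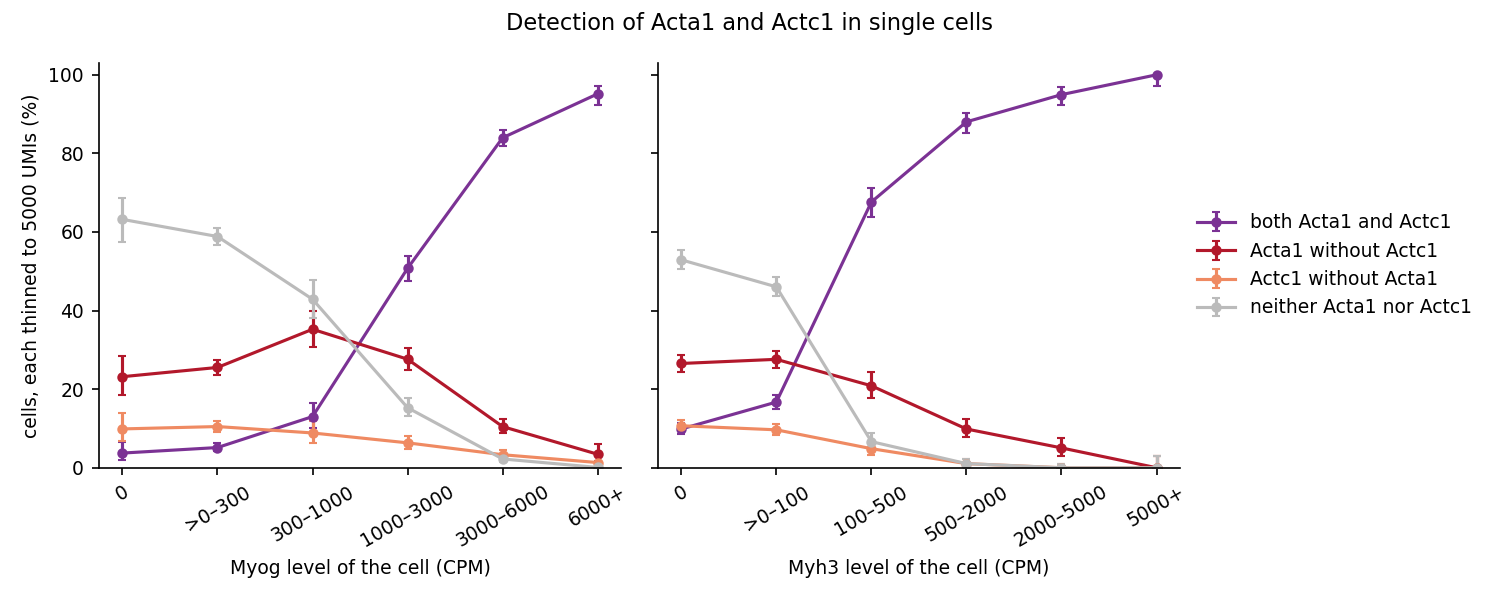
Percent of cells (vertical axis), each thinned to 5000 UMIs, that had UMIs of both Acta1 and Actc1, of 1 of them or of neither, along Myog (left) and Myh3 (right) in CPM, with exact 95% binomial intervals for counting error. Acta1 without Actc1 peaks at 35.2% at 300 to 1000 CPM of Myog, where Actc1 without Acta1 is at 8.85%.

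Cells of 1 bin still differed widely. At 2000 to 5000 CPM of Myh3, the 5th, 50th and 95th percentile of Actc1 over cells were 129, 4544 and 12332 CPM, and those of Acta1 were 2000, 7791 and 18266 CPM. At 1000 to 3000 CPM of Myog the Acta1 percentiles were 28.2, 856 and 13621 CPM, so this bin held cells nearly without and cells full of Acta1. Acta2 in cells without Myog ran from 0 through 335 to 2396 CPM. Actb in the same cells ran from 1317 through 3949 to 7481 CPM.

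Cycling and non-cycling cells were compared next. Cycling cells had 9.73% sarcomeric actin, 9.58% Acta2 and 80.7% cytoplasmic actin, and non-cycling cells 53.1%, 18.6% and 28.3%. Cycling minus non-cycling, the sarcomeric share differed by -43.4 points (-43.6 to -43.2) and the Acta2 share by -8.99 points (-9.16 to -8.82). As a mean over cells, which gives each cell the same weight, the sarcomeric difference was -28.6 points. With cycling called by a UMI of Mki67 or Top2a, genes of dividing cells, the sarcomeric and Acta2 differences were -32.9 and -5.92 points. Acta1 stood at 461 CPM in cycling and 3785 in non-cycling cells, Actc1 at 295 and 2212, and Acta2 at 745 and 2097. Actb stood at 4223 against 2174 CPM and Actg1 at 2047 against 1021 CPM. Acta1, Actc1 and Acta2 passed as lower at log2 ratios of -3.03, -2.90 and -1.49, as did 5.44% of 12895 genes. Actg1 passed as higher at 1.00, as did 8.7% of genes, but stood at 0.89 under TMM and RLE scaling. Actb, at 0.96, did not pass.

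Since cycling cells had less Myog (714 against 2878 CPM), the comparison was repeated within Myog bins. Without Myog the sarcomeric share differed by -0.20 points (-0.56 to 0.14), within counting error. At a Myog level above 0 and under 300 CPM it was 1.57% in cycling and 3.11% in non-cycling cells, a difference of -1.54 points (-1.73 to -1.36), and between 300 and 1000 CPM the difference was -14.7 points (-15.5 to -14.0). Between 1000 and 3000 CPM of Myog, 389 cycling cells had 25.3% sarcomeric actin against 57.3% in 607 non-cycling cells, a difference of -32.0 points (-32.5 to -31.5). Between 3000 and 6000 CPM the 150 cycling cells had 36.7% and the 1078 non-cycling cells 63.9%. Averaged over the 5 bins that held at least 50 cells of each state, the difference was -15.1 points, -15.3 to -14.9 over the files. In each of these bins with Myog UMIs, the difference was thus negative and larger than the counting error.

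The levels behind these shares showed which isoforms took part. At 1000 to 3000 CPM of Myog, Acta1 stood at 1369 CPM in cycling and 4559 CPM in non-cycling cells. Actc1 stood at 758 and 1845 CPM, Actb at 3351 and 2027 CPM, and Actg1 at 1599 and 949 CPM. At 300 to 1000 CPM, Acta1 stood at 385 against 1415 CPM and Actc1 at 173 against 243 CPM, so within the sarcomeric pair most of the difference lay in Acta1. Actb there stood at 4174 against 3171 CPM, Actg1 at 1934 against 1450 CPM and Acta2 at 777 against 1177 CPM. Within these bins cycling cells also had less Myh3, 492 against 1687 CPM at 1000 to 3000 CPM of Myog, with Myog itself at 1882 against 2116 CPM. At 300 to 1000 CPM of Myog, Myh3 stood at 135 in cycling and 368 CPM in non-cycling cells, and Myog at 578 and 634 CPM. The part of Myh3 in the actin differences was not tested. Within the Myh3 bin of 500 to 2000 CPM, sarcomeric actin made 42.3% in 106 cycling and 62.8% in 582 non-cycling cells, whose median depths were 16613 and 11338 UMIs. Doublets of a cycling and a differentiated cell were not removed, and their part in these groups was not tested. Without the deepest 5% of cells the overall difference was -45.1 points.

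Acta2 behaved differently from the sarcomeric pair in this split. Its share was lower in cycling cells at low Myog, by -3.56 points (-4.36 to -2.78) without Myog and -5.35 (-6.03 to -4.66) at 300 to 1000 CPM. At 1000 to 3000 CPM the difference was -0.32 (-0.72 to 0.09), and at 3000 to 6000 CPM it was 0.57 (-0.07 to 1.22), both within counting error. In CPM, Acta2 was lower in cycling cells in each of the 5 bins compared, with 2072 against 2898 at 3000 to 6000 CPM of Myog.

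**Figure D4:**
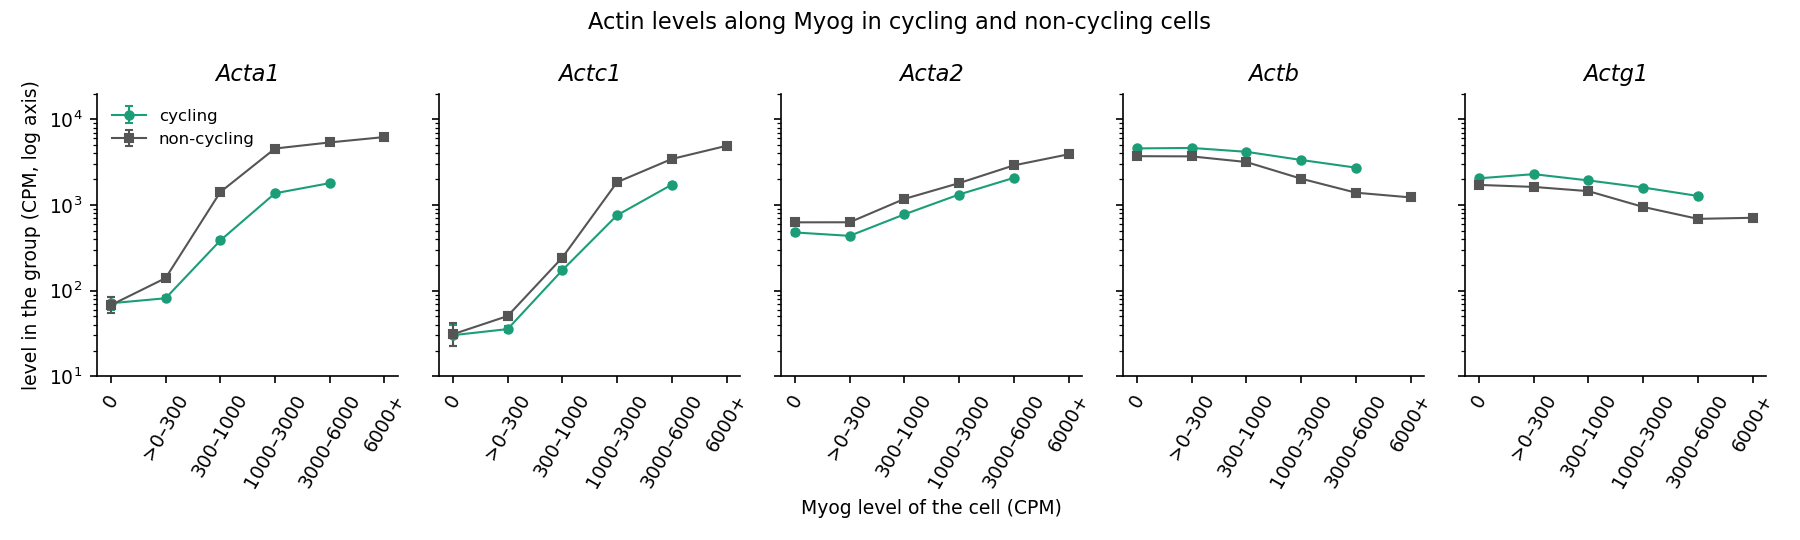
Levels of the 5 actin genes (vertical log axis, CPM of the summed group) along Myog bins (horizontal axis, CPM) in cycling cells (circles) and non-cycling cells (squares), with exact 95% Poisson intervals for counting error. At 1000 to 3000 CPM of Myog, Acta1 stands at 1369 CPM in cycling and 4559 CPM in non-cycling cells, and Actb at 3351 and 2027 CPM.

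The genes that build on actin filaments were then set beside the members, from lists chosen by function. Of 23 sarcomeric thin filament genes, 20 were measured in the Myog comparison and all 20 passed as higher, as did 8.58% of all genes. Their median log2 ratio was 3.62. Lmod2 and Lmod3, the leiomodins that nucleate sarcomeric actin, stood at 6.42 and 5.75, and Tnni1, a troponin I of slow muscle, at 5.77. Tnnt3, a troponin T of fast muscle and the most abundant gene of the list at 1745 CPM, stood at 3.81. The alpha-tropomyosin gene Tpm1 had the smallest ratio, 1.16. Along Myh3, 20 of 21 measured genes passed as higher (8.25% of all genes did) and Nebl (nebulette) as lower at -1.61 (29.8% of all genes). In cycling against non-cycling cells 18 of 22 passed as lower (5.44% of all genes) and 0 as higher (8.7% of all genes).

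Of 32 cytoplasmic actin regulators, 30 were measured along Myog, of which 17 passed as lower (26.3% of all genes did), 3 as higher (8.58% of all genes) and 10 as neither, with a median of -1.24. The lower genes included Flna (filamin A, which cross-links filaments) at -2.66, Tpm4 (a cytoplasmic tropomyosin) at -2.49, and Diaph3 (a formin) and Anln (anillin of the cytokinetic ring) at -3.49 and -3.79. Cfl1, the non-muscle cofilin that severs filaments, passed as lower at -1.43 but stood at -0.95 with TMM and -0.94 with RLE scaling, which do not pass. Cfl2, the muscle cofilin of the thin filament list, passed as higher at 1.57. The exceptions were Cap2 at 2.27, a cyclase-associated protein of striated muscle, and the monomer-binding thymosins Tmsb4x at 1.69 and Tmsb10 at 1.43. Under TMM or RLE scaling 12 passed as lower and 3 as higher, and 7 of the smaller ratios changed sign. Of all 8206 genes, 1391 (TMM) or 1372 (RLE) then passed as lower and 1193 or 1218 as higher. In cycling cells, with the phase gene Anln left out, 5 of 30 passed as higher, among them Diaph3 at 3.77 and Tpm4 at 1.60, against 8.7% of all genes. Cap2 and Tmsb4x passed as lower at -1.21 and -1.05, a count near the 5.44% of all genes.

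**Figure D5:**
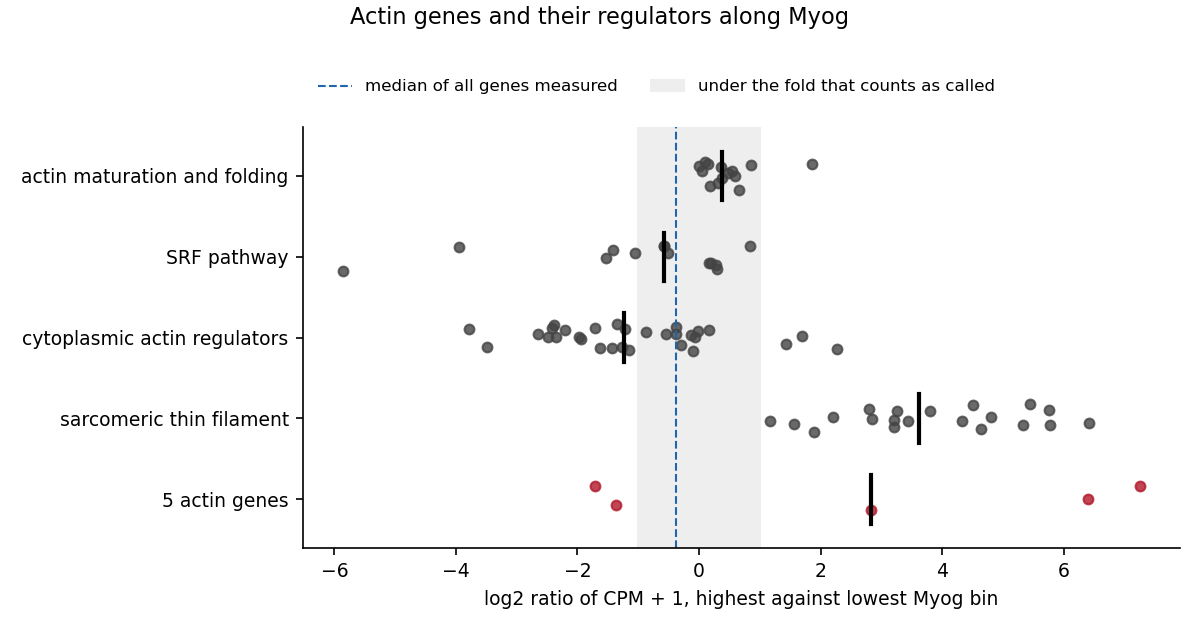
Log2 ratio of CPM plus 1 between the highest and the lowest Myog bin (horizontal axis) for the 5 actin genes (red) and the measured genes of 4 lists (grey), with black bars at each list's median, a dashed line at the median of all genes (-0.38) and the shaded range in which a gene is not called. All 20 sarcomeric thin filament genes lie to the right of the shaded range, and 17 of 30 cytoplasmic regulators lie to its left.

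The regulators and targets of SRF gave no common direction. Along Myog, 5 of 13 measured genes passed as lower, 0 as higher and 8 as neither, with a median of -0.57, where 26.3% of all genes passed as lower and 8.58% as higher. With TMM or RLE scaling 3 passed as lower and 1 as higher. Under these scalings 1391 or 1372 of 8206 genes passed as lower and 1193 or 1218 as higher. Srf itself stood at 0.30 and its cofactors Mrtfa and Mrtfb at -0.58 and -0.57. Tagln2 (transgelin 2) and Ccn2 (connective tissue growth factor) had the lowest ratios, -5.85 and -3.95, and Vcl (vinculin), at 0.84 along Myog, passed as higher along Myh3 at 1.36. Among the members whose promoters are printed above, Acta1, Actc1 and Acta2 passed as higher and Actg1, which also holds a CArG box, as lower. The call of Actg1 did not hold under TMM or RLE scaling. Of 16 genes for actin folding and maturation, such as the CCT chaperonin that folds nascent actin, 14 were measured and 13 passed as neither. Pdcl3, a phosducin-like cofactor of that chaperonin, passed as higher at 1.87. With TMM or RLE scaling, 5 of the 14 passed as higher, as did 1193 (TMM) or 1218 (RLE) of 8206 genes. Setd3, the methyltransferase that modifies a histidine of actin, stood at 0.37.

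Acta2 is also a marker of smooth muscle cells and pericytes, so their other genes were read beside it. Of the 12 on that list, 4 could be measured along Myog. Tagln passed as higher at 1.52 and Abcc9 (a subunit of potassium channels) at 3.98, where 8.58% of all genes passed as higher. Cspg4 (NG2) passed as lower at -1.92, and this 1 of 4 is near the 26.3% of all genes. Myl9 stood at 0.41. Myh11 and Cnn1, the defining markers of mature smooth muscle, were at 0.302 and 0.100 CPM while Acta2 was at 1425 CPM. In thinned cells Acta2 was detected in 67.7% without Myog, 64.4% above 0 and under 300 CPM of Myog, and 99.9% at 6000 CPM and over. Pdgfrb and Rgs5, below the count minimum, stood at 16.3 and 11.3 CPM without Myog. In the highest bin they were at 0.230 and 0.539 CPM. Along Myh3, 6 of the list were measured. Tagln and Abcc9 passed as higher (8.25% of all genes did) and Cspg4 as neither. Rgs5 (-3.34), Pdgfrb (-2.67) and Myl9 (-1.31, but -0.94 with RLE) passed as lower (29.8% did). Whether other cell types carried Acta2 was not tested.

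For each member the most similar genes over the 30 groups of cells were sought among 5967 genes of at least 20 CPM. Acta1 was followed by Smpx (a small muscle protein of the costamere) at a Pearson r of 0.996, then by Myl1, Tnnt2, Unc45b and Tnnc1. Actc1 was followed by Mylk4 at 0.986, Ablim3, Mboat2, Tnnt2 and Plpp7. Acta2 was followed by Pdcl3 at 0.981, Lrpap1, Sh3glb1, Jsrp1 and Orai1. Actb was followed by Actg1, Ptms, Gng10, Dstn and Cfl1, and Actg1 by Actb, Cfl1, Fscn1, Gng10 and Bax. Tnnt2 alone stood on the lists of both sarcomeric isoforms. Between Acta1 and Actc1 themselves r was 0.971, between Acta1 and Acta2 0.927, and between Acta1 and Actb -0.84. The correlations use the same files and groups and carry no test.

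The ratio of Actc1 to Acta1 was then read within differentiated cells, in a split chosen after the spread had been seen. The pool was 1196 cells with Myh3 at 500 CPM or more and at least 10 UMIs of the pair, summed over replicates 1 and 2. From it, the 299 cells with the highest share of Actc1 in the pair and the 299 with the lowest were picked. They were picked in replicates 1 and 2 and read in replicates 3 and 4. Those replicates hold the same cells, so this guards against counting noise alone. Actc1 stood at 6245 against 899 CPM and Acta1 at 4067 against 7129 CPM, which the choice of cells sets. Of 20 measured thin filament genes 0 passed in either direction, a count near the background, since only 1.17% of 8108 genes passed as higher in the Actc1-rich cells and 1.16% as lower. Myh3 stood at 2006 against 2205 CPM and Myog at 4447 against 3333 CPM.

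The gene with the largest ratio was Cdkn1c, which encodes the cell cycle inhibitor p57, at 418 against 25.6 CPM (log2 ratio 3.98), above Actc1 itself at 2.79. Tmem178b (2.72), Dpysl5 (2.38), Tmem200a (2.31) and Heg1 (2.08) followed. In the Acta1-rich cells Cmya5 (-2.90), Casq1 (calsequestrin of the sarcoplasmic reticulum, -2.57), Fhl1 (-2.19), Xirp2 (-2.11) and the muscle regulatory factor Myf6 (-1.92) had the largest ratios the other way. Since Cdkn1c was picked from this split, its relation to Actc1 in the same cells is a description and no second reading. In cells with Myh3 at 500 CPM or more, Actc1 made 32.7% (32.4% to 32.9%) of the pair in 852 cells without Cdkn1c, 37.3% (36.7% to 37.9%) in 169 cells under 100 CPM and 48.7% (48.2% to 49.3%) in 194 cells at 100 CPM or more. Between the first and the last of these groups Actc1 stood at 3371 and 5768 CPM, and Acta1 at 6954 and 6071 CPM. Myog stood at 3804 and 4357 CPM in these groups, and its part in the difference was not tested.

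A second split, also chosen after seeing the data, concerned Acta2 at low Myog. Of 2463 cells with Myog under 300 CPM, the tenth with the most Acta2 in replicates 1 and 2 (247 cells, at least 1484 CPM) had 2270 CPM in replicates 3 and 4, and the other 2216 cells had 345 CPM. Acta1 stood at 249 against 79.8 CPM and Actc1 at 85.9 against 34.7 CPM, and both passed at log2 ratios of 1.63 and 1.29, as did 1% of 11601 genes (1.14% passed as lower), while Actb (0.07) and Actg1 (0.08) hardly differed. Tagln had the largest ratio at 2.84, followed after Acta2 by the muscle genes Tcap at 2.40 and Smpx at 2.18. Of 20 measured thin filament genes 9 passed as higher. On the smooth muscle and pericyte list 2 of 6 did, Tagln and Myl9, the latter at 288 against 115 CPM (1.32), and on the SRF list 1 of 15 did, Cnn2 (a calponin) at 93.5 against 41.5 CPM. The Acta2-high cells were cycling in 52.2% of cases against 67.1% in the rest, with a median of 8294 against 11211 UMIs and Myog at 97.7 against 69.1 CPM, and the part of these differences was not tested.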

How the data were processed

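The authors deposited, for each of the 4 samples, unnormalized UMI counts of each gene in each barcode, from 10x Genomics 3-prime v3.1 libraries. Per the file headers the counts come from Cell Ranger 7.1.0, whereas the submitters' processing notes name Cell Ranger 3.1.0 and the builds mm10 and GRCm39. Which build was used, and whether intronic reads were counted, is not given in the sources used here. Positions come from GENCODE M21 on GRCm38, in which 99.6% of gene IDs were found, and may differ from the authors' build.

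Levels, shares and log2 ratios were computed per file from the counts (Python 3.11.15, numpy 2.4.6, pandas 2.3.3) and averaged, never summed, since the files share cells. A share is a gene's part of the summed UMIs of the 5 actin genes. Bins used the mean CPM of a cell over the files, with edges of 300, 1000, 3000 and 6000 CPM for Myog and 100, 500, 2000 and 5000 CPM for Myh3. Cycling cells were those called S or G2/M by scanpy 1.11.5 on the summed counts. Ratios used a pseudocount of 1 CPM. Intervals are exact (scipy 1.17.1), binomial for shares and Poisson for levels, at the mean count of 1 file. PCR copies are collapsed by UMI, and intervals cover counting error only. TMM and RLE factors came from edgeR 4.0.16 in R 4.3.3 and served as scaling alternatives, with no count model fitted. No doublet caller was run, and leaving out the deepest 5% of cells was an alternative. The ratios were checked on simulated data.

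The members, lists, bins and tests were chosen with earlier results of these data known. Genes named from a functional list include those with the largest ratios and, but for 2 lists, the most abundant gene. The most abundant genes of the SRF and folding lists, Cnn3 and Cct2, stood at 0.16 and 0.18 along Myog. Genes named for likeness are the 5 with the highest r. Other named genes, the splits by Actc1, Cdkn1c and Acta2 and their genes were chosen after their values were seen. Other alternatives were the cell filter, thinning, the mean over cells, the files used for binning, the count minimum and leaving out each file.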

Additional observations from a re-analysis of the deposited data

Results flagged for a closer look

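Levels over all kept cells and shares in groups of cells were compared over the 4 files. Of these 75 values, 4 (5.33%), all shares, had 1 file apart from the other 3, where chance gives about 5%. In cells without Myog, Actg1 made 27.95% of actin UMIs in replicate 1 and 28.30% to 28.34% in the others. At a Myog level above 0 and under 300 CPM, Acta1 made 1.373% in replicate 2 and 1.337% to 1.340% in the others. At a Myh3 level above 0 and under 100 CPM, Actc1 made 3.248% in replicate 4 and 3.294% to 3.302% in the others. At 2000 to 5000 CPM of Myh3, Acta1 made 49.05% in replicate 2 and 48.90% to 48.92% in the others.

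The Acta2 share of cycling minus non-cycling cells was 0.572 points at 3000 to 6000 CPM of Myog and positive in each file, from 0.411 to 0.733. In the 4 lower bins it was negative in each file, from -0.322 points at 1000 to 3000 CPM to -5.35 points at 300 to 1000 CPM. The files hold the same cells, and the difference between bins was not tested.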

How the results depend on the processing

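Depth and the number of independent samples limit these results: 1 sample of unstated animals allows no estimate of biological error, and transcripts near 1 UMI per cell cannot be told from free RNA. Of 70 recomputed differences in the sarcomeric and Acta2 shares, 52 stayed within the counting-error interval of the main difference. A further 17 lay outside that interval and 1 reversed. For the single shares of Acta1, Actc1, Actb and Actg1, 80 of 140 stayed within it, 60 lay outside and 0 reversed. Of 90 recomputed log2 ratios of the members, 60 stayed within their interval, 30 lay outside and 0 reversed. The difference in Acta2 share along Myh3 turned from 0.884 to -0.477 points with cells thinned to equal depth, and was 1.82 under the stricter cell filter (2000 genes, under 5% mitochondrial) and 0.360 as a mean over cells. As a mean over cells the sarcomeric differences were 58.2 (Myog), 78.9 (Myh3) and -28.6 points (cycling), against 63.2, 79.7 and -43.4. With bins set in replicates 1 and 2 and shares read in 3 and 4 they were 64.1 along Myog and 79.2 along Myh3. Thinning gave 79.1 along Myh3 and -43.1 for cycling, and the stricter filter -41.9 for cycling. For Acta2 that filter gave 15.7 along Myog and -9.26 for cycling. Without the deepest 5% of cells the cycling differences were -45.1 (sarcomeric) and -9.25 (Acta2), and with cycling called by a UMI of Mki67 or Top2a they were -32.9 and -5.92. Leaving out each file gave 15.2 to 15.7 for Acta2 along Myog. Genes called higher along Myog numbered 704, against 1193 with TMM, 1218 with RLE and 1166 with no count minimum, and those lower 2156, against 1391, 1372 and 4115. Without the minimum 1402 genes were higher along Myh3, against 918. No paired analysis was possible because there is 1 group.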

Other observations

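For the 463 barcodes that failed the cell filter, depth was low (median 1207 UMIs) and the mitochondrial part was 40.9%. Their actin UMIs were a mixture near that of the kept cells, with Acta1 at 23.2% against 22.4%, Actc1 at 13.3% against 13.2% and Actb at 31.4% against 33.5%. Acta2 was higher, at 18.03% (16.4% to 19.8%) against 14.9%, and Actg1 was at 14.1% (12.6% to 15.7%) against 16.0%.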
